A study of Mus musculus with 13 samples.

Results

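The transcripts of 10 antioxidant enzymes (Sod1, Cat, Gpx1, Gpx4, Prdx1, Prdx2, Prdx3, Prdx5, Txn2 and Txnrd1) were followed through RNA pull-downs with dAKAP1, an anchoring protein of the outer mitochondrial membrane. They were chosen by name, with Sod2 left out, and they are 10 of 27071 identifiers in the count table. Except for Txn2 and Txnrd1, of the thioredoxin system, they encode enzymes that remove superoxide or peroxides. In this study, the purified KH and Tudor domains of dAKAP1 (KHT) were incubated with total RNA from the mouse Leydig cell line MA-10 and recovered through an MBP tag with an antibody. The library kit removes ribosomal RNA, although the labels also name polyA RNA. The 3 groups were KHT pull-downs (4 libraries), negative control pull-downs (NEG, 4 libraries with counts) and the RNA that went into the pull-downs (IPT, 4 libraries). The cells of all groups grew in medium with horse serum and no treatment of them is named, and the bait met extracted RNA in a tube, so binding inside cells was not measured. NEG pools 3 kinds of bait, which are beads with antibody alone, MBP alone and KHT(GDDG), and the labels do not tie a bait to a library. The GDDG change is known to weaken RNA binding by KH domains. Another NEG library, NEG 2, was listed at 0 throughout and was not used. The labels name no separate cultures, so the p-values measure only the spread between these libraries, which may be technical.

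Superoxide dismutases turn superoxide into hydrogen peroxide, which catalase, glutathione peroxidases and peroxiredoxins then reduce. Peroxiredoxins are reset by thioredoxins, and thioredoxins by thioredoxin reductases with NADPH, while glutathione peroxidases draw on glutathione. In Leydig cells the electron transfer of steroid synthesis in mitochondria is a known source of reactive oxygen. Prdx3, Prdx5 and Txn2 encode proteins found mainly or partly in mitochondria, and the others are cytosolic, peroxisomal or found in several places. Gpx1, Gpx4 and Txnrd1 encode selenoproteins, which carry selenocysteine at the active site.

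The depth of the groups differed. Total estimated counts ran from 1955446 to 3689792 in KHT, from 1162178 to 1618998 in NEG and from 2487679 to 3085423 in IPT. In NEG, 9 features, among them Lars2 and the mitochondrial ribosomal RNA mt-Rnr2, held 96.0% to 98.1% of the counts. Outside them NEG libraries held 31318 to 49062 counts, against at least 929348 in each KHT library. NEG 5 stood apart from the other NEG libraries, with 7047 features above 0 against 2173 to 4082. Among KHT and IPT libraries, KHT 1, KHT 2 and IPT 1 had the 3 positive scores on a first principal component that held 40.5% of the variance. Their scores were 15.6, 56.5 and 26.6, and the next was -1.3 in KHT 4. The cells' label was checked against markers: 10 of 10 Leydig markers had counts in IPT, among them Nr5a1, a steroidogenic transcription factor (163 to 224 CPM, a count scaled to a common library size with TMM factors), and Lhcgr, the luteinising hormone receptor (9.23 to 11.98 CPM). In counts over the 4 IPT libraries, Nr5a1 had 6377, Lhcgr 340 and Hsd3b6, the lowest Leydig marker, 197. Markers of other cell types were uneven, and the endothelial marker Cdh5 had more counts than Lhcgr. Over the 4 IPT libraries the Sertoli markers Amh, Wt1 and Cldn11 had 2 to 4 counts, but Sox9, Dhh and Gata1 had 79, 67 and 109. The germ cell markers Sycp3 and Zbtb16 were at 0 and Ddx4 had 82 counts, the endothelial markers Tek, Pecam1 and Cdh5 had 3, 118 and 548, and the epithelial markers Krt8, Cdh1 and Epcam had 2, 1 and 64. Of macrophage and peritubular markers, Ptprc, Cd68, Acta2, Myh11 and Cnn1 had 1 to 15 counts. The listed markers Dazl, Adgre1, Csf1r and Krt18 were not in the count table. The part of other cell types in the results was not tested.

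KHT was first set against NEG, the background of beads and control baits. Of the 10 transcripts, 3 passed as higher in KHT (Cat, Gpx4 and Prdx3) and none as lower, at an adjusted p of 0.05 in edgeR's quasi-likelihood test. At an unadjusted p of 0.05, 4 passed, Gpx1 as lower, beside 5233 of all 10714 genes tested. DESeq2 called 5 higher and 1 lower, beside 3985 and 393 of all genes. At the adjusted p of edgeR, 31.0% of all 10714 genes passed as higher and 2.72% as lower, so the share among the enzymes is near that of all genes. The median log2 fold change was 1.13 over the enzymes and 1.73 over all genes. These counts rest on few NEG counts and on single NEG libraries: 0 of the 10 passed as higher without NEG 1, without NEG 3 or without NEG 4 (unadjusted p of Cat, Gpx4 and Prdx3 then from 0.00896 to 0.0434), and 8 passed as higher and 1 as lower without NEG 5. Calls over all genes moved too. Without NEG 1, 3 or 4, 1720 of 11462, 2470 of 11453 and 2400 of 11465 genes passed as higher. Without NEG 5, 47.2% passed as higher and 3.95% as lower. TMM scaling assumes that most genes are level between libraries, so fewer copies of a transcript and more of the others cannot be told apart. CPM values are not corrected for transcript length and were not compared between genes.

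**Figure D1:**
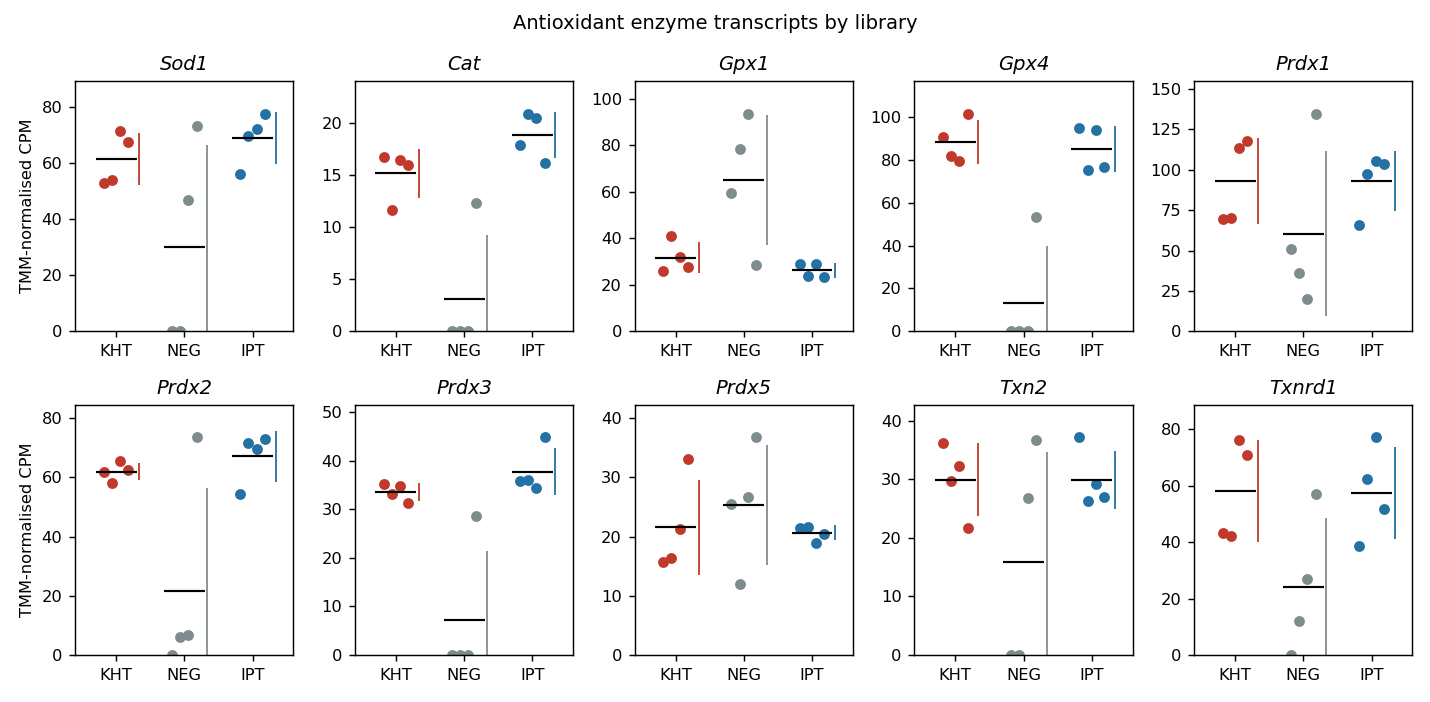
Level of each enzyme transcript in TMM-normalised CPM (vertical axis, from 0) in 4 KHT, 4 NEG and 4 IPT libraries; points are libraries, black lines are means and vertical bars are SDs, drawn from 0 where they would fall below it. KHT and IPT points overlap in each of the 10 panels, while NEG points lie at 0 for 3 of 4 libraries in Cat, Gpx4 and Prdx3 and above the KHT mean for 3 of 4 in Gpx1.

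Gpx4, which reduces peroxidised lipids in membranes, is encoded on chromosome 10 (80047166 to 80056439; this and the positions below are on GRCm38.p6, from RefSeq). It stood at 90.7, 82.0, 79.3 and 102 CPM in KHT 1 to 4, at 0 in NEG 1, 3 and 4, and at 53.1 CPM, from 13 counts, in NEG 5. Each KHT library lay above each NEG library, an order shared by 45.8% of all genes tested. Prdx3 also had it, and no enzyme had the opposite order, which 1.02% of all genes showed. The difference was 2.56 on the log2 scale (SE 0.83, n = 4 each; edgeR adjusted p = 0.0253). The call was lost without NEG 1 (adjusted p = 0.0516), NEG 3 (0.0653) or NEG 4 (0.0609), and in a fit of the 2 groups alone (0.0516).

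The value of Gpx4 also depends on a near-identical copy. Gpx4-ps2, a processed copy of Gpx4 that was picked out after its values were seen, had 5, 2 and 22 counts in NEG 3, 4 and 5, and 31 and 30 counts in KHT 1 and KHT 3. It was at 0 in NEG 1, in KHT 2 and KHT 4 and in the 4 IPT libraries. With the counts of Gpx4 and Gpx4-ps2 summed as 1 gene, the log2 difference between KHT and NEG was 0.90 (SE 0.75, edgeR adjusted p = 0.327). So the call of Gpx4 holds only for the counts as the authors divided them between the copies. The sources used here do not give the rule by which reads were divided.

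Prdx3, the peroxiredoxin of the mitochondrial matrix (chromosome 19, 60864066 to 60874538), stood at 35.3, 33.1, 34.9 and 31.3 CPM in KHT 1 to 4. In NEG it was at 0 in 3 libraries and at 28.6 CPM, from 7 counts, in NEG 5, and the groups did not overlap. The log2 difference was 1.98 (SE 0.69, n = 4 each; edgeR adjusted p = 0.0336). It lost the call without NEG 1 (0.101), NEG 3 (0.0871), NEG 4 (0.0868), KHT 1 (0.0509) or KHT 3 (0.0515), in the 2 groups alone (0.0712), with library size from counts outside the 9 features (0.0647) and with halved values (0.0522).

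Cat, the catalase of peroxisomes (chromosome 2, 103453904 to 103485153), stood at 16.7, 11.6, 16.4 and 15.9 CPM in KHT 1 to 4. Its NEG counts were 3, all in NEG 5 (12.3 CPM), which lay above KHT 2, so the groups overlapped. The ratio of summed counts, scaled for library size, was 4.13 with a 95% counting interval of 1.40 to 20.1, which covers counting error only. In edgeR the log2 difference was 2.02 (SE 0.74, adjusted p = 0.0411). The call was lost without any 1 of NEG 1, 3 or 4, KHT 1, 3 or 4, or IPT 2, 3 or 4 (adjusted p from 0.0516 to 0.129), in the 2 groups alone (0.0896), with library size from counts outside the 9 features (0.0822) and with halved values (0.115).

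Gpx1, the most widely expressed glutathione peroxidase, had a higher mean in NEG than in KHT, with overlapping groups and no call. It is encoded on chromosome 9 (108339080 to 108340342). It stood at 25.7, 40.9, 32.1 and 27.8 CPM in KHT 1 to 4 and at 59.4, 78.4, 93.7 and 28.6 CPM in NEG 1, 3, 4 and 5. NEG 1, 3 and 4 lay above the 4 KHT libraries, and NEG 5 lay among them. The log2 difference was -1.0 (SE 0.43, n = 4 each) with an edgeR adjusted p of 0.0696. It passed as lower in KHT without NEG 5 (-1.21, adjusted p = 0.00454), with library size from counts outside the 9 features (-1.26, 0.0291) and in DESeq2 (-0.88, 0.00469). Scaled by total counts alone it was higher in KHT (3.12). That scaling moves the median of all genes from 1.73 to 5.66, and relative to the median Gpx1 was at -2.73 under TMM and -2.54 under total counts.

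Sod1, Prdx1, Prdx2 and Txnrd1 showed wide NEG spread and did not pass. Sod1, the copper and zinc superoxide dismutase (chromosome 16, 90220762 to 90226333), stood at 53.0 to 71.7 CPM in KHT and at 0, 0, 46.9 and 73.5 CPM in NEG 1, 3, 4 and 5 (log2 difference 1.01, SE 0.73, edgeR adjusted p = 0.257). Prdx1 (chromosome 4, 116685599 to 116700000) and Prdx2 (chromosome 8, 84969622 to 84974811) are abundant peroxiredoxins of the cytosol. Prdx1 had 12, 6, 3 and 33 counts in NEG 1, 3, 4 and 5, and its NEG levels, from 20.1 to 134.8 CPM, enclosed those in KHT, from 69.6 to 118.0 CPM (0.58, SE 0.62, edgeR adjusted p = 0.444). Prdx2 had 0, 1, 1 and 18 counts in NEG, so that NEG 5 (73.5 CPM) alone lay above the KHT range of 58.2 to 65.4 CPM (1.41, SE 0.71, edgeR adjusted p = 0.117). For Txnrd1, the cytosolic thioredoxin reductase (chromosome 10, 82833951 to 82897724), KHT ran from 42.0 to 76.4 CPM and NEG from 0 to 57.2 CPM (1.24, SE 0.66, edgeR adjusted p = 0.132).

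Prdx5 and Txn2, listed above with Prdx3 for a mitochondrial product, did not pass. Prdx5, a peroxiredoxin found in mitochondria, peroxisomes and cytosol (chromosome 19, 6906697 to 6910106), had 6, 2, 4 and 9 counts in NEG, or 12.1 to 36.8 CPM, and KHT libraries at 15.6 to 33.0 CPM lay inside that range (-0.28, SE 0.44, edgeR adjusted p = 0.614). The sign is not settled: without NEG 5 the value was 0.05. Txn2, the mitochondrial thioredoxin (chromosome 15, 77915051 to 77928994), was at 0 in NEG 1 and NEG 3 and at 26.8 and 36.8 CPM in NEG 4 and NEG 5, against 21.6 to 36.2 CPM in KHT (0.89, SE 0.62, edgeR adjusted p = 0.237). Prdx5 overlaps Trmt112, and Txnrd1 overlaps Eid3 and a long noncoding RNA model. The sources used here do not say whether counting used strand, so reads in the overlaps are uncertain. Sod2, the mitochondrial superoxide dismutase that the choice of genes left out, lay at 17.1 to 29.1 CPM in KHT and 0 to 13.4 CPM in NEG (1.39, edgeR adjusted p = 0.0674), with each KHT library above each NEG library.

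**Figure D2:**
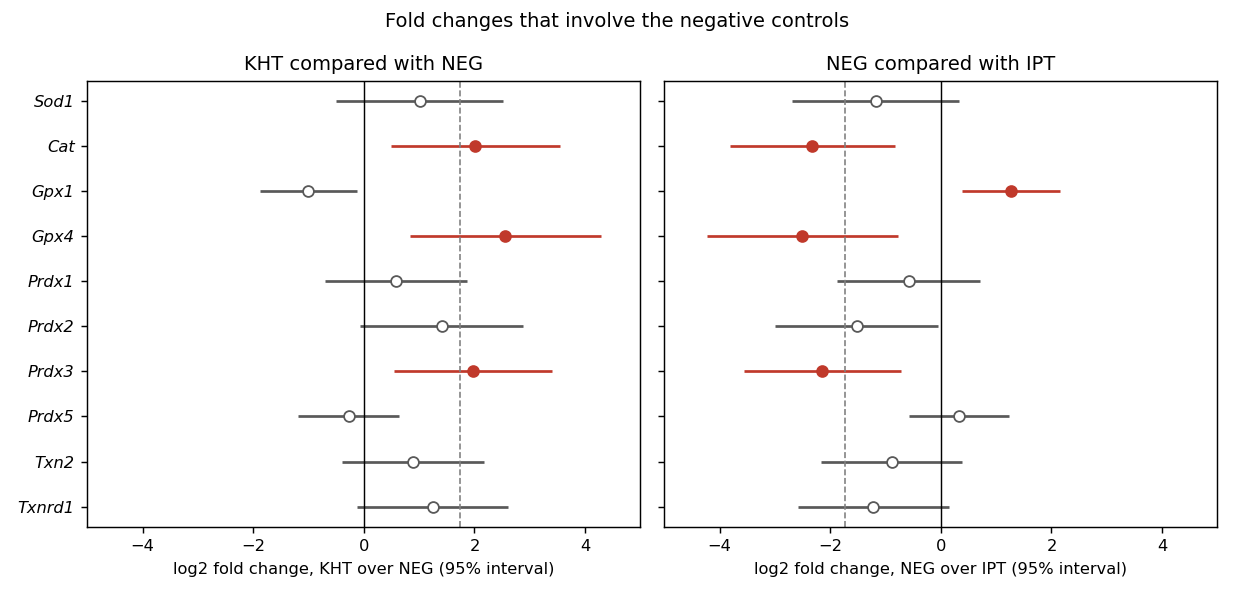
Log2 fold change (horizontal axis) with its 95% interval for each enzyme, KHT over NEG at left and NEG over IPT at right; filled red points passed an adjusted p of 0.05 in edgeR, open points did not, and the dashed line is the median of all genes tested (1.73 and -1.74). Cat, Gpx4 and Prdx3 lie right of 0 at left and left of 0 at right, and Gpx1 has the opposite sign in both.

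NEG 5 carried most of the enzymes' NEG counts. The 10 transcripts had 224 counts in NEG, of which 131 (58.5%) were in NEG 5, a library with 31.8% of the NEG counts outside the 9 features. All 10 transcripts had counts in NEG 5, against 3, 5 and 7 of 10 in NEG 1, 3 and 4. Relative to counts outside the 9 features, NEG 5 held the enzymes at 0.722 (Gpx4) to 2.06 (Prdx5) times their mean level in IPT, with a median of 1.24. In NEG 1, 3 and 4 pooled the same ratio was 0 for Cat, Gpx4 and Prdx3, 0.0656 for Prdx2, 0.496 for Prdx1 and 1.28 for Prdx5. Gpx1 stood at 3.43 there, with 41 of its 48 NEG counts outside NEG 5.

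**Figure D3:**
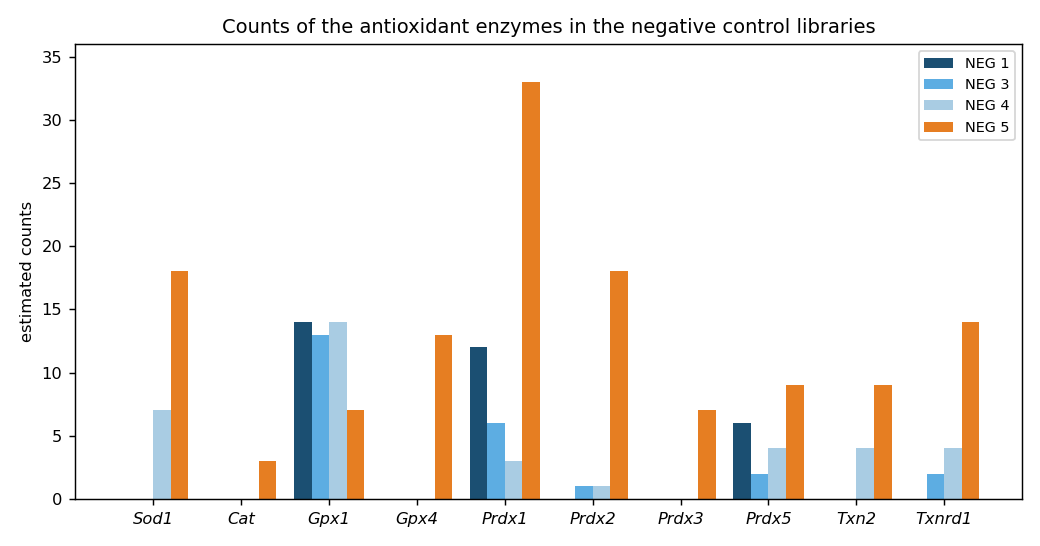
Estimated counts (vertical axis) of each enzyme in the 4 NEG libraries with counts, 1 bar per library. NEG 5 has the highest bar for each enzyme except Gpx1, for which NEG 1, 3 and 4 have 14, 13 and 14 counts and NEG 5 has 7.

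Without NEG 5, the enzymes called higher in KHT than in NEG were Sod1, Cat, Gpx4, Prdx1, Prdx2, Prdx3, Txn2 and Txnrd1, and Gpx1 was called lower (edgeR), beside 47.2% of all genes called higher and 3.95% called lower in the same fit. Over all genes the median log2 difference was then 6.24, with many genes at 0 in NEG, where a fitted value depends on the prior count. Prdx2 was at 4.13 on the log2 scale (adjusted p = 0.000236), Txnrd1 at 2.42 (0.00949), Sod1 at 2.26 (0.0221), Txn2 at 2.08 (0.0298) and Prdx1 at 1.40 (0.0158), each below that median. Gpx4, Prdx3 and Cat were then at 0 in NEG. With those libraries set to a floor of 3 counts in all, KHT was at least 15.9-fold, 6.27-fold and 2.86-fold higher. With Gpx4-ps2 counted in, NEG 3 and NEG 4 would hold 5 and 2 counts for Gpx4. NEG 5 was left out after its values were seen, and no label sets it apart.

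The comparison of NEG with IPT sets levels in the control pull-downs against levels in the input. Both are relative levels, so a ratio does not give the part of the input RNA that was kept. Gpx4-ps2, for example, had 29 counts in NEG and 0 in IPT. The comparison shares the NEG libraries with the comparison above and is no separate evidence on them. Of the 10 transcripts 3 passed as lower in NEG (32.5% of all genes) and 1 as higher (3.64% of all genes). Gpx4 was lower by the fit (-2.50, SE 0.83, edgeR adjusted p = 0.0263), as were Cat (-2.32, SE 0.72, adjusted p = 0.0194) and Prdx3 (-2.14, SE 0.68, adjusted p = 0.022). In these 3 each NEG library lay below each IPT library, an order shared by 47.1% of all genes, and no enzyme had the opposite order (1.74% of all genes). These calls rest on single libraries too: 0 of the 10 passed as lower without NEG 1 (edgeR adjusted p = 0.0671 for Cat, 0.0530 for Gpx4 and 0.0686 for Prdx3), and 8 without NEG 5. The number called lower over all genes also fell or rose with the library left out, as given below under the dependence on processing. The median log2 difference over all genes was -1.44 without NEG 1 and -6.24 without NEG 5, against -1.74 with all libraries. Gpx4 also lost the call without NEG 3 (0.0676), NEG 4 (0.0631) or IPT 3 (0.0539) and with Gpx4-ps2 counted in (-0.82, edgeR adjusted p = 0.372). Prdx3 lost it without NEG 3 (0.0600) or NEG 4 (0.0597), and Cat in the 2 groups alone (0.0518) and with halved values (0.0608).

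Gpx1 was the 1 enzyme called higher in NEG than in IPT, at 65.0 ± 28.1 against 26.3 ± 3.18 CPM (SD, n = 4 each; log2 difference 1.26, SE 0.43, edgeR adjusted p = 0.0281). Of all genes tested, 4.55% had a larger difference in this direction. NEG 5 at 28.6 CPM lay within the IPT range of 23.3 to 29.1 CPM, and the other NEG libraries lay above it. The call was lost without NEG 3 (0.0649), NEG 4 (0.0890), IPT 2 (0.0792), IPT 3 (0.0602) or IPT 4 (0.0801), in the 2 groups alone (0.0775) and without the filter on low counts (0.281). Under total counts Gpx1 was lower in NEG (-3.12), and relative to the median of all genes it was at 3.0 under TMM and 2.78 under total counts.

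The comparison of KHT with IPT asks which RNAs the bait took up more or less than their share of the input. No enzyme passed in either direction, and each had an edgeR adjusted p of 1.00. None had an unadjusted p under 0.05, and none passed in DESeq2 or limma voom. Of all genes tested, 0.00933% passed as higher and 0% as lower, and 175 of 10714 had an unadjusted p under 0.05. The KHT and IPT libraries overlapped for 10 of 10 enzymes, while among all genes 0.840% had each KHT library above each IPT library and 1.17% the reverse.

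The log2 differences between KHT and IPT ran from -0.31 for Cat (SE 0.30) to 0.26 for Gpx1, with a median of 0.00 beside 0.01 over all genes. Cat stood at 15.2 ± 2.36 CPM in KHT and 18.8 ± 2.23 in IPT, Gpx4 at 88.4 ± 10.1 and 85.1 ± 10.6, and Prdx3 at 33.7 ± 1.84 and 37.8 ± 4.76 (SD, n = 4 each). Txn2 stood at 29.96 ± 6.18 against 29.9 ± 4.99 CPM and Prdx5 at 21.6 ± 8.02 against 20.7 ± 1.28. A missed threshold does not show that the levels were equal. In the fit of the 3 groups, where the wide NEG spread enters the error, the 95% intervals of the differences ran from -1.47 to 1.44. In a fit of KHT and IPT alone they ran from -0.67 (Cat) to 0.64 (Gpx1), and the smallest of the 10 unadjusted p-values was 0.0988. Changes beyond these bounds were outside every interval. Each enzyme has its own interval, such as -0.242 to 0.36 for Gpx4 and -0.455 to 0.129 for Prdx3. Changes inside an enzyme's own interval are not excluded.

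**Figure D4:**
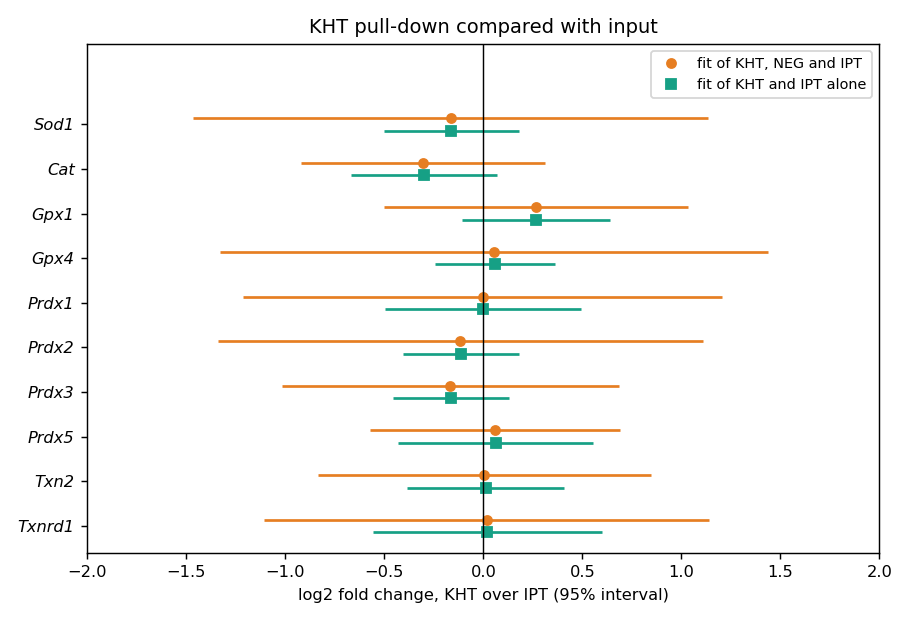
Log2 fold change of KHT over IPT (horizontal axis) with its 95% interval for each enzyme, from the fit of the 3 groups (orange) and from the fit of KHT and IPT alone (green). Each interval includes 0, and those from KHT and IPT alone stay between -0.67 and 0.64.

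Within the KHT and IPT libraries, 4 of the enzymes followed a split that cut across both groups. Txnrd1 stood at 43.3, 42.0 and 38.6 CPM in KHT 1, KHT 2 and IPT 1, and at 76.4, 70.8, 62.4, 77.1 and 51.8 CPM in KHT 3, KHT 4, IPT 2, IPT 3 and IPT 4. Prdx1 stood at 69.6, 70.1 and 65.5 CPM in the former 3, and at 113.8, 118.0, 97.5, 105.7 and 103.7 CPM in the others. Sod1 ran from 53.0 to 56.2 CPM in the former and from 67.6 to 77.8 CPM in the others. Prdx2 had a narrower gap, from 54.4 to 62.0 CPM against 62.3 to 72.9 CPM.

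In each of these 4 transcripts the same 3 libraries were thus the lowest of the 8, and in none of the 10 were they the highest. Of all genes tested, 13.9% had these 3 libraries lowest and 14.6% had them highest. The split was noticed in these same values, so the count is a description. The same 3 libraries lie at the positive end of the first principal component over all genes, with scores of 15.6, 56.5 and 26.6 against -32.0 to -1.3 in the others. No label sets these libraries apart. The share of counts in the 9 features was 29.3%, 46.4% and 28.9% in the 3, and 26.7% to 52.7% in the others. The cause of the split was not tested.

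**Figure D5:**
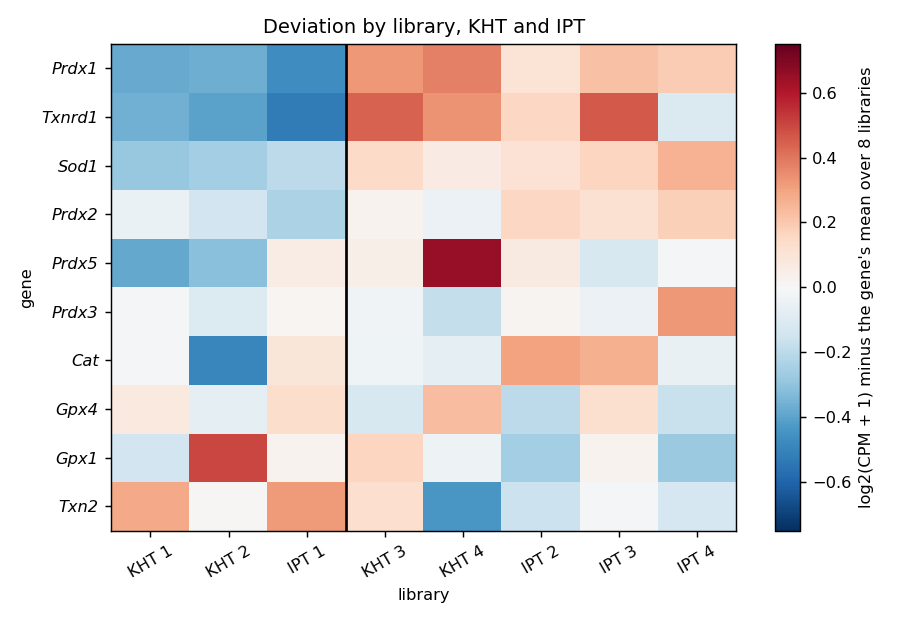
Deviation of log2(CPM + 1) from the gene's mean over 8 libraries, as colour (blue lower, red higher), for 10 enzymes (rows) in the KHT and IPT libraries (columns); the black line separates KHT 1, KHT 2 and IPT 1 from the others. Prdx1, Txnrd1, Sod1 and Prdx2 are lowest in those 3 libraries, and Prdx5 and Txn2 have their highest and lowest level in KHT 4.

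The other enzymes did not follow that split. Gpx4 varied least after Prdx2 over the 8 libraries, from 75.2 to 102 CPM, with a ratio of highest to lowest of 1.35. Prdx3 ran from 31.3 to 44.9 CPM, with IPT 4 highest. Prdx5 had the widest range, a ratio of 2.11, through KHT 4 at 33.0 CPM against 15.6 CPM in KHT 1. In KHT 4 Txn2 was at its lowest, 21.6 CPM, and it was highest in IPT 1 at 37.2 CPM. Leaving out KHT 1, KHT 2 and IPT 1, in a fit of the other KHT and IPT libraries, gave log2 differences of 0.18 for Prdx1 (SE 0.10), 0.21 for Txnrd1 (SE 0.15), -0.08 for Sod1 (SE 0.11) and 0.39 for Prdx5 (SE 0.19). No enzyme passed there (smallest edgeR adjusted p = 0.743).

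Genes that work beside these enzymes were counted in 5 lists. A gene with no count in NEG passed the filter through KHT and IPT and could come out only as higher. Values of such genes are given as bounds alone, and the numbers called are a description. Those numbers, the medians and the share of all genes include such genes. Called with no count in NEG were Glrx3, Sesn1 and Glrx5 in the thioredoxin list and Gclm, Glo1, Gstm5 and Gstt1 in the glutathione list. So were Secisbp2, Selenon and Pstk among selenoprotein genes and Keap1, Hmox2, Blvra and Msrb3 in the Nrf2 list. NADPH supply had none. In the thioredoxin, peroxiredoxin and glutaredoxin system, 4 of 15 tested genes (17 listed) passed as higher in KHT against NEG, with a median log2 difference of 1.16. Glrx3, a glutaredoxin of iron-sulfur cluster handling, had no count in NEG; with NEG set to a floor of 3 counts in all, KHT was at least 3.60-fold higher. For glutathione synthesis and use it was 9 of 19 (23 listed, median 2.05), among them Gclm, the regulatory subunit of the enzyme that starts glutathione synthesis (at least 4.18-fold), and Glo1, glyoxalase 1 (at least 3.97-fold).

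In NADPH supply 4 of 16 passed as higher (median 1.65). Mthfd1, a folate enzyme of the cytosol that can make NADPH, was higher, at 50.4 ± 5.05 CPM in KHT against 10.2 ± 8.47 in NEG (SD, n = 4 each; log2 difference 2.19, edgeR adjusted p = 0.0104). Among selenoprotein synthesis genes and further selenoproteins 5 of 18 passed (20 listed, median 1.52), with Secisbp2, which binds the selenocysteine insertion element of selenoprotein messages, at least 3.27-fold higher. Of the Nrf2 pathway with haem and iron handling 10 of 21 passed (22 listed, median 1.94), with Keap1, the inhibitor of Nrf2, at least 3.76-fold higher and Hmox2, the constitutive haem oxygenase, at least 3.45-fold higher. No gene of the 5 lists passed as lower, beside 31.0% of all genes called higher and 2.72% called lower. Genes at 0 in NEG could not pass as lower.

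Between KHT and IPT no gene of the 5 lists passed in edgeR, and 2 had an unadjusted p under 0.05. These were Gpx8, a peroxidase of the endoplasmic reticulum (1.47 ± 0.828 against 3.47 ± 1.80 CPM), and Selenop, a secreted selenium carrier (27.9 ± 9.47 against 62.3 ± 40.6 CPM; SD, n = 4 each). Their unadjusted p-values in edgeR were 0.0447 and 0.046, and both adjusted p-values were 1.00.

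The genes closest to an enzyme over the 12 libraries were sought among 6628 genes by the root mean square difference of centred log2(CPM + 1). For Gpx4 these were Nadk (0.16) and Nfe2l2 (0.20), for Prdx3 Smc5 (0.11) and Afdn (0.13), and for Cat Mbd1 (0.15) and Arl5a (0.15). For Gpx1 they were Nap1l1 (0.21) and Vdac2 (0.24), and for Txnrd1 Ctnna1 (0.18) and Slc25a4 (0.23). Prdx1 had the least close match (Dhx9, 0.31). NEG levels, at 0 or from few counts, enter this measure, so a close match need not hold within KHT and IPT. Among those libraries Nadk and Nfe2l2, unlike Gpx4, were highest in KHT 1, KHT 2 and IPT 1.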

How the data were processed

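The authors deposited unscaled estimated counts per gene, as whole numbers. The tools kallisto and DESeq2 and the builds GRCm38 and mm10 are named, without roles, per the submitters' processing notes. Values of 2 outnumbered values of 1 in 12 of 12 libraries with counts, so values may count both mates of each read pair, and halved values were tried. Groups follow the sample titles, as the description of the KHT samples speaks of negative controls. Symbols were found for 27004 of 27071 identifiers. Genes kept by filterByExpr (10714) were tested with edgeR 4.0.16 (R 4.3.3), by robust glmQLFit and glmQLFTest after TMM, in 1 fit of KHT, NEG and IPT, two-sided, with Benjamini-Hochberg adjustment over all genes; 10 of 10 enzymes were kept. SE is the log2 fold change divided by the root of F. NEG 2, at 0, was left out. Alternatives used limma 3.58.1, DESeq2 1.42.0, other scalings, and fits without each library. The fit was tested on simulated data. The 9 features are those with at least 0.5% of pooled NEG counts. Exact binomial counting intervals are at 95%, and floors are 3 counts over a group; both cover counting error only and are too narrow if both mates were counted. Principal components used log2(CPM + 1). The enzymes, the 5 lists and the rules were chosen with earlier results of these data known. Named genes were the 10 enzymes, Sod2, and from each list up to 2 with the smallest p in KHT with NEG and in KHT with IPT, of which some are given. Genes of the lists called with no count in NEG were named too. Matches had a mean of at least 5 CPM, a symbol, and no pseudogene name. The labels do not say whether replicate numbers pair the libraries.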

Additional observations from a re-analysis of the deposited data

Results flagged for a closer look

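Of 30 sets of 4 libraries (10 enzymes in 3 groups), 6 had a library far from the others by Dixon's criterion. Chance alone gives about 1 in 20 for spread-out values. That rate does not apply to Cat, Gpx4 and Prdx3 in NEG, where the other libraries are all at 0 and any count in NEG 5 meets the criterion. For Prdx2 in NEG the rate is doubtful too, as NEG 1, 3 and 4 held 0, 1 and 1 counts. NEG 5 was far above the other NEG libraries in 4 of them. It stood at 53.1 CPM for Gpx4, 28.6 CPM for Prdx3 and 12.3 CPM for Cat, each with the others at 0, and at 73.5 CPM for Prdx2, where the next library was at 6.69 CPM. In KHT, Cat was far lower in KHT 2 (11.6 CPM) than in the others, of which the lowest was at 15.9 CPM. In IPT, Prdx3 was far higher in IPT 4 (44.9 CPM) than in the next library (36.1 CPM).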

How the results depend on the processing

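Between KHT and NEG, the number of the 10 enzymes called higher, 3 with all libraries, was 10 with total counts as library size, 7 with the replicate block, 5 in DESeq2, 5 in the 2 groups alone without NEG 5, 1 with library size from the counts outside the 9 features, 1 after halving and 0 in the 2 groups alone. Leaving out 1 library at a time gave 0 to 8 higher and 0 to 1 lower. 1 was called lower (Gpx1) with counts outside the 9 features, with the replicate block, in DESeq2 and in the 2 groups alone without NEG 5. Over all genes, 3324 called higher became 10426 with total counts, 5042 with the block, 3985 in DESeq2 and 2102 in the 2 groups alone. The number was 4703 of 9592 in the 2 groups alone without NEG 5, and 2356 with counts outside the 9 features. Halved values gave 1762, and fits without 1 library gave 1720 to 5421. The 291 called lower became 791 without the filter, 14 with total counts, and 174 to 454 without 1 library. The number was 385 with counts outside the 9 features, 358 with the block, 393 in DESeq2 and 433 in the 2 groups alone without NEG 5. Between NEG and IPT, 3 enzymes called lower became 10 with total counts, 7 with the block, 7 in the 2 groups alone without NEG 5, 5 in DESeq2 and 0 to 8 without 1 library. All genes shifted too. Their median log2 difference, -1.74 in the main fit, was -6.41 with the block and -1.58 in DESeq2. In the 2 groups alone without NEG 5 it was -6.4. The 1 called higher became 0 without the filter, with total counts and in the 2 groups alone, and 0 to 1 without 1 library. Over all genes the 3482 called lower became 10423 with total counts, 2046 in the 2 groups alone, 1901 with halved values and 1783 to 5438 without 1 library. The 390 called higher became 987 without the filter, 50 with total counts and 310 to 512 without 1 library. Between KHT and IPT no enzyme passed under any alternative run. There 1 gene of all was called higher, against 43 without the filter, 4 in DESeq2, 5 without KHT 1, KHT 2 and IPT 1, and 0 with total counts, with counts outside the 9 features or with halved values (0 to 2 without 1 library). Against 0 called lower there were 13 without the filter, 8 in limma voom, 3 in DESeq2, 4 without those 3 libraries, 1 in the 2 groups alone, 1 with halved values, and 0 to 2 without 1 library. The cause of these shifts was not tested.

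Signs turned with total counts for Gpx1 (3.12) and Prdx5 (3.71) between KHT and NEG and for Gpx1 (-3.12) and Prdx5 (-3.95) between NEG and IPT. Prdx5 between KHT and NEG was also at 0.024 without the filter and at -0.51 to 0.052 without 1 library. Between KHT and IPT, differences near 0 changed sign. With total counts Gpx1 (-0.001), Gpx4 (-0.20), Prdx5 (-0.24), Txn2 (-0.21) and Txnrd1 (-0.24) turned. Txn2 was also at -0.012 without the filter, at -0.006 with counts outside the 9 features, at -0.028 in DESeq2, at -0.017 in limma voom and at -0.002 without KHT 1, KHT 2 and IPT 1, where Prdx1 was at 0.18. Txnrd1 was at -0.001 without the filter and at -0.021 in DESeq2. Without 1 library Gpx4 ran from -0.023 to 0.11, Prdx1 from -0.14 to 0.11, Prdx5 from -0.21 to 0.19, Txn2 from -0.10 to 0.13 and Txnrd1 from -0.15 to 0.19.

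The replicate block used numbers that the labels do not tie to pairs of libraries. Same-numbered KHT and IPT libraries correlated across genes at -0.334 to 0.222, 3 of 4 over 0.1, and 1 of 8 libraries correlated best with its own number. These values do not settle whether the libraries were paired. The block fits NEG 5 by itself, as its number occurs once. At 31318 to 49062 counts outside the 9 features, a NEG library gives most enzymes under 20 counts, which limits each comparison with NEG. NEG 5, KHT 1, KHT 2 and IPT 1, the halved values and the sum with Gpx4-ps2 were chosen as alternatives after seeing the data.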

Other observations

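Genes of the 5 related lists also followed the split of KHT 1, KHT 2 and IPT 1 from the other KHT and IPT libraries. Of 89 tested, 28 (31.5%) had these 3 libraries lowest, beside 13.9% of all genes, and 18 (20.2%) had them highest, beside 14.6% of all genes. No test was made, and the names here were picked after the values were seen. Those lowest in the 3 libraries include Txn1, the cytosolic thioredoxin, Srxn1, which repairs overoxidised peroxiredoxins, Gsr, glutathione reductase, and both subunits of the enzyme that starts glutathione synthesis, Gclc and Gclm. They also include Tkt, transketolase, G6pdx and Pgd, which make NADPH in the pentose phosphate pathway, and Hmox1, the inducible haem oxygenase. Txn1 stood at 38.5, 42.2 and 44.0 CPM in KHT 1, KHT 2 and IPT 1 and at 56.3 to 81.3 CPM in the others. Pgls, the enzyme between G6pdx and Pgd, had the 3 libraries highest instead. Those highest also include Slc7a11 and Slc3a2, which form the cystine transporter, Chac1, which breaks down glutathione, Sesn2, a sestrin, Mthfd2 and Aldh1l2 of mitochondrial folate metabolism, and Nfe2l2, which encodes Nrf2.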
